A study of Mus musculus with 8 samples.

Results

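The Nr4a genes encode a small family of orphan nuclear receptors, Nr4a1 (Nur77), Nr4a2 (Nurr1) and Nr4a3 (NOR1). The 3 genes were taken by symbol from the 18957 genes listed for each library, and all 3 passed the filter that left 13036 genes for testing. They were chosen by their counts in these libraries, with the measured difference between the genotypes known, so that difference is given as values, folds and standard errors without a test. No other gene of the annotation overlaps any of the 3 loci.

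NR4A receptors have a ligand pocket filled by bulky side chains, and their activity follows mainly from how much of the protein is made. They are immediate-early genes, switched on within minutes to hours by cAMP and CREB, by calcium through MEF2, and by growth factors, stretch and stress. The proteins bind a short DNA element, the NBRE, as monomers, and NR4A1 and NR4A2 also pair with retinoid X receptors. In fibroblasts NR4A1 is known as a brake on TGF-beta signaling.

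The libraries were RNA-Seq of cardiac fibroblasts of mice aged 3 to 4 weeks, sorted as living, hematopoietic lineage-negative, PDGFRA-positive cells after collagenase perfusion of the heart. The WT group held 4 libraries from C57BL/6 (mixed) mice with wild-type alleles. The Pdgfra-Cre:LmnaF/F group held 4 libraries from mice of the same background with both Lmna alleles floxed around exon 2, deleted by a Cre that a Pdgfra BAC transgene drives. No library came from mice with the Cre alone, so transgene and deletion cannot be told apart here, and by the study's methods Lmna was deleted in most but not all fibroblasts. The sex of the mice was not used.

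Lmna, the targeted gene encoding lamins A and C, was at 331.3, 273.7, 482.9 and 373.9 CPM, the count scaled to a common library size, in WT replicates 1 to 4. It was at 126.2, 97.4, 130.0 and 90.42 CPM in the Pdgfra-Cre:LmnaF/F replicates, all below the WT values, a log2 fold change of -1.72 ± 0.22 (SE, n = 4 per group, adjusted p = 0.00492, edgeR quasi-likelihood test). Totals were 2080555 counts in WT replicate 2 and between 6345584 and 12502949 in the other 7 libraries. In all, 53 of the 13036 genes (0.407%) were called at an adjusted p under 0.05 by that test, 22 of them higher (0.169%) and 31 lower (0.238%) in Pdgfra-Cre:LmnaF/F fibroblasts. Before adjustment, 1550 genes (11.9%) had a p under 0.05, and 51.8% of all tested genes had a positive log2 fold change. DESeq2 called 0.935% of its genes higher and 1.22% lower, and limma-voom, run with sample quality weights, 0.483% in each direction. Mesenchymal markers, led by Gsn, summed to 84860 to 100600 CPM in WT and 83030 to 95940 CPM in Pdgfra-Cre:LmnaF/F libraries.

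Nr4a1 (ENSMUSG00000023034.7) lies on the plus strand of mm10 at chr15:101254269-101274795, Nr4a2 (ENSMUSG00000026826.13) on the minus strand at chr2:57106830-57124003, and Nr4a3 (ENSMUSG00000028341.9) on the plus strand at chr4:48045153-48086447. All 3 are protein coding. The bases ahead of their RefSeq start sites are shown because CREB, the factor through which cAMP switches these genes on, binds the cAMP response element (CRE), and all 3 windows are dense in its short form. The sequences are from RefSeq (GRCm38.p6), 5′ to 3′ on the strand of the gene, with the short CRE motif TGACG or its reverse complement CGTCA in capitals. The window of Nr4a1 is chr15:101266596-101266845, that of Nr4a2 is chr2:57124004-57124253 on the minus strand, and that of Nr4a3 is chr4:48045055-48045152, which stops where the first GENCODE exon begins.
Nr4a1: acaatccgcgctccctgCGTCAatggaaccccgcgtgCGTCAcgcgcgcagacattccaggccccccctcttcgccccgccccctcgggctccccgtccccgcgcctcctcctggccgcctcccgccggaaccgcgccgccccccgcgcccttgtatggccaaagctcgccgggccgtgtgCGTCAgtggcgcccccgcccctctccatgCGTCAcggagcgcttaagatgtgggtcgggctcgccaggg
Nr4a2: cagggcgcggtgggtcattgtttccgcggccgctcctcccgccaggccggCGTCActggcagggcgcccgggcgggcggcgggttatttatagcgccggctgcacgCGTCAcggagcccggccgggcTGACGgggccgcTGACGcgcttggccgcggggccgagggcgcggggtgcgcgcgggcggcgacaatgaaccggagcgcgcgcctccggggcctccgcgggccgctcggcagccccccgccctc
Nr4a3: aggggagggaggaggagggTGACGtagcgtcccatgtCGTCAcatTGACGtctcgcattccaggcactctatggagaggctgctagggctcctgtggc

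The Nr4a1 window is 250 bases that lie within the GENCODE gene but in none of its exons, 12327 bases downstream of the first base of its longest model. The windows of Nr4a2 and Nr4a3 lie before their genes. Over the 300 bases from 250 before to 50 after the start site, each of the 3 genes held 4 short CRE motifs on either strand, the fourth of Nr4a3 lying past the bases printed. Counted from the start site, the motifs began at positions -233, -213, -69 and -40 in Nr4a1. They began at -200, -144, -123 and -111 in Nr4a2, and at -231, -213, -205 and -147 in Nr4a3. Of 32841 mouse promoters of the same length, 20.8% held at least 1 short CRE motif and 76 (0.231%) held at least 4.

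The 3 promoters were also rich in G and C, at 72.3% for Nr4a1, 81.7% for Nr4a2 and 64.7% for Nr4a3 against a median of 52.7% over all promoters. Among the 18.3% of promoters with at least the GC content of Nr4a3, 0.532% held 4 or more. The number of motifs was 4 or more in 0 of 36 other nuclear receptors and in 0 of 16 cAMP-responsive early genes with a promoter sequence. At least 1 motif was held by 11 of those 36 receptors, 13 of the 16 early genes and 12 of 22 dissociation-response genes, against 20.8% of all promoters. The full palindrome TGACGTCA, present in 1.79% of promoters, the NBRE AAAGGTCA, in 1.51%, and the CArG box of serum response factor, in 1.63%, were not found in these letters in any of the 3 windows. The TATA motif TATAAA, on either strand and found in 13.6% of promoters, occurred once, in Nr4a2 on the opposite strand. TGACG is contained in TGACGTCA, and none of the other motifs overlap by definition. A match of letters describes the sequence only.

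**Figure D1:**
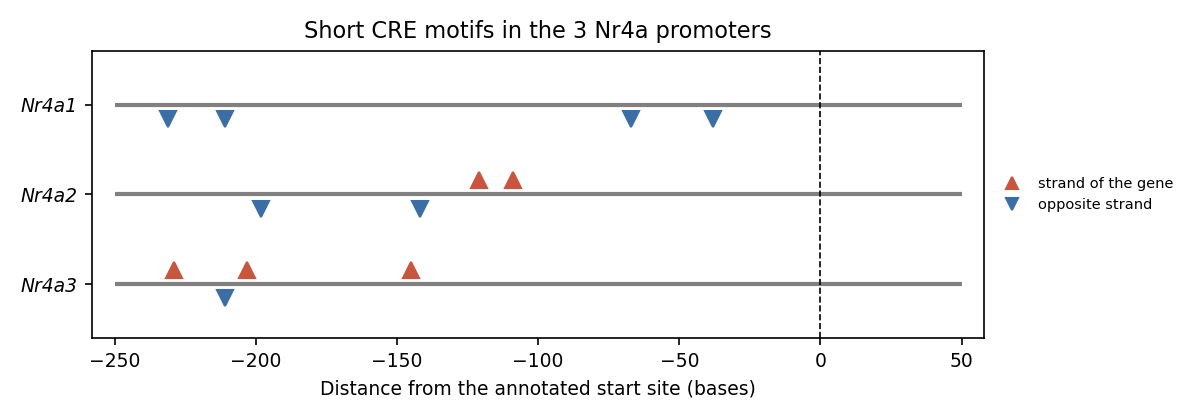
Position of each short CRE motif (TGACG on either strand) in bases from the annotated start site, dashed at 0, for the 3 genes, with triangles up for the strand of the gene and down for the opposite strand. Each gene has 4 motifs, all before the start site, and the nearest, in Nr4a1, begins at -40.

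Nr4a1 was the abundant member. It was read 2549, 138, 1582 and 1954 times in WT replicates 1 to 4, which is 238.2, 69.44, 252.8 and 202.3 CPM. In the Pdgfra-Cre:LmnaF/F replicates it was read 5163, 5651, 11393 and 5605 times, which is 534.1, 589.3, 1312 and 467.1 CPM. WT replicate 2 was the low library of its group, Pdgfra-Cre:LmnaF/F replicate 3 was the high one of the other, and the groups did not overlap. The mean was 190.7 ± 83.55 CPM in WT and 725.5 ± 393.9 CPM in Pdgfra-Cre:LmnaF/F fibroblasts (SD, n = 4 each). The log2 fold change was 1.92 ± 0.39 (SE), or 3.79-fold, and the lowest Pdgfra-Cre:LmnaF/F value was 1.85 times the highest WT value.

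Nr4a2, the member best known for the upkeep of dopamine neurons, was close to the floor of detection in some WT libraries. Its counts were 101, 4, 9 and 46 in WT replicates 1 to 4, or 9.436, 2.013, 1.438 and 4.763 CPM. In the Pdgfra-Cre:LmnaF/F replicates its counts were 220, 425, 381 and 208, or 22.76, 44.32, 43.86 and 17.33 CPM. WT replicate 1 stood highest of its group and Pdgfra-Cre:LmnaF/F replicate 4 lowest of the other, again without overlap. Means were 4.413 ± 3.65 CPM and 32.07 ± 14.06 CPM (SD, n = 4 each). The log2 fold change of 2.78 ± 0.55 (SE), or 6.85-fold, was the highest of the 3. The 4 counts in WT replicate 2 carry a counting error of 50%, so the WT level is the less certain side of that fold.

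Nr4a3 showed a narrow WT group and a wide Pdgfra-Cre:LmnaF/F group. Its counts were 267, 47, 156 and 211 in WT replicates 1 to 4, or 24.95, 23.65, 24.93 and 21.85 CPM. In the Pdgfra-Cre:LmnaF/F replicates they were 481, 830, 1778 and 426, or 49.75, 86.55, 204.7 and 35.5 CPM. The WT libraries lay within 1.14-fold of each other, whereas replicate 3 of the Pdgfra-Cre:LmnaF/F group was 5.77 times replicate 4, its lowest. Means were 23.84 ± 1.461 CPM and 94.12 ± 76.78 CPM (SD, n = 4 each). The log2 fold change was 1.98 ± 0.43 (SE), or 3.94-fold, with the lowest Pdgfra-Cre:LmnaF/F value 1.42 times the highest WT value.

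**Figure D2:**
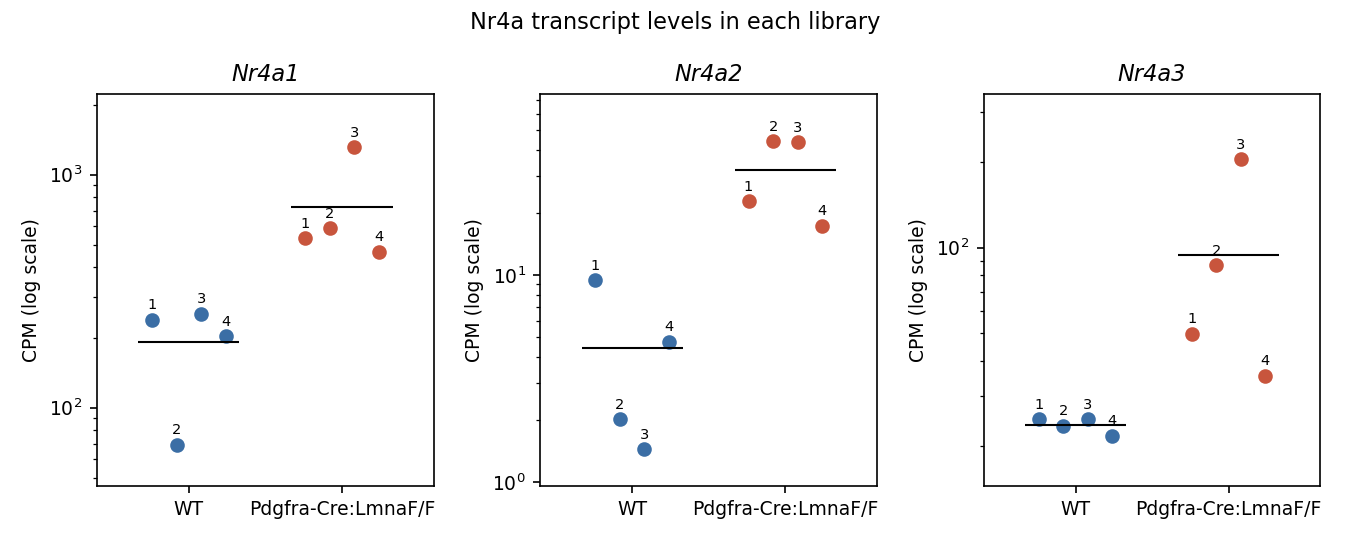
CPM on a log axis in each library for Nr4a1, Nr4a2 and Nr4a3, with points numbered by replicate and black lines at the group means. For each gene the 4 Pdgfra-Cre:LmnaF/F libraries sit above the 4 WT libraries, from 467.1 CPM up for Nr4a1, 17.33 CPM up for Nr4a2 and 35.5 CPM up for Nr4a3.

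Groups lay apart in this way, all 4 Pdgfra-Cre:LmnaF/F values above all 4 WT values, for 529 genes (4.06%), and the opposite held for 518 genes (3.97%). Since this contrast chose the Nr4a genes, nothing is read from their place among the 529. Of the tested genes, 32 had a higher log2 fold change than Nr4a2, 167 than Nr4a3 and 189 than Nr4a1. In bulk RNA, fewer cells of a type and less RNA per cell cannot be told apart, so a higher level may lie in more cells with the transcript or in more transcript per cell.

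Pooled over both genotypes, the members varied between libraries of 1 genotype more than most genes. The edgeR estimate of variation beyond counting was nearer the median of 35.2% for Nr4a1, at 38%, and Nr4a3, at 41.2%, than for Nr4a2, at 50.7%. The SD of log2 CPM within a genotype was 0.779 for Nr4a1, 0.942 for Nr4a2 and 0.781 for Nr4a3, against a median of 0.494 over all tested genes. For Nr4a3 the SD was 0.089 among WT libraries, where only 2.06% of genes varied less, and 1.10 among Pdgfra-Cre:LmnaF/F libraries, where 81.0% of genes varied less. The WT SD of Nr4a3 in CPM was 6.13% of its mean. Counting error alone was 6.12% to 14.6% in those libraries, so that narrow spread is no wider than counting gives. For Nr4a1 the SD of log2 CPM was the larger in WT, 0.873 against 0.671 in Pdgfra-Cre:LmnaF/F libraries, and for Nr4a2 the SDs were 1.15 and 0.678. The differences in spread were not tested.

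Leaving out Pdgfra-Cre:LmnaF/F replicate 3 moved the folds of Nr4a1 and Nr4a3 most, and leaving out WT replicate 1 that of Nr4a2. Without Pdgfra-Cre:LmnaF/F replicate 3 the log2 fold change of Nr4a3 fell to 1.26 and that of Nr4a1 to 1.47. Without WT replicate 1 that of Nr4a2 was 3.47, and without WT replicate 3 it was 2.46. Without WT replicate 2 that of Nr4a1 was 1.65. Without Pdgfra-Cre:LmnaF/F replicate 4, the lowest of its group for all 3 genes, the values were 2.08 for Nr4a1, 2.97 for Nr4a2 and 2.25 for Nr4a3. With WT replicate 2 and Pdgfra-Cre:LmnaF/F replicate 3 both left out, a choice made after seeing the data, they were 1.20 for Nr4a1, 2.41 for Nr4a2 and 1.26 for Nr4a3.

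**Figure D3:**
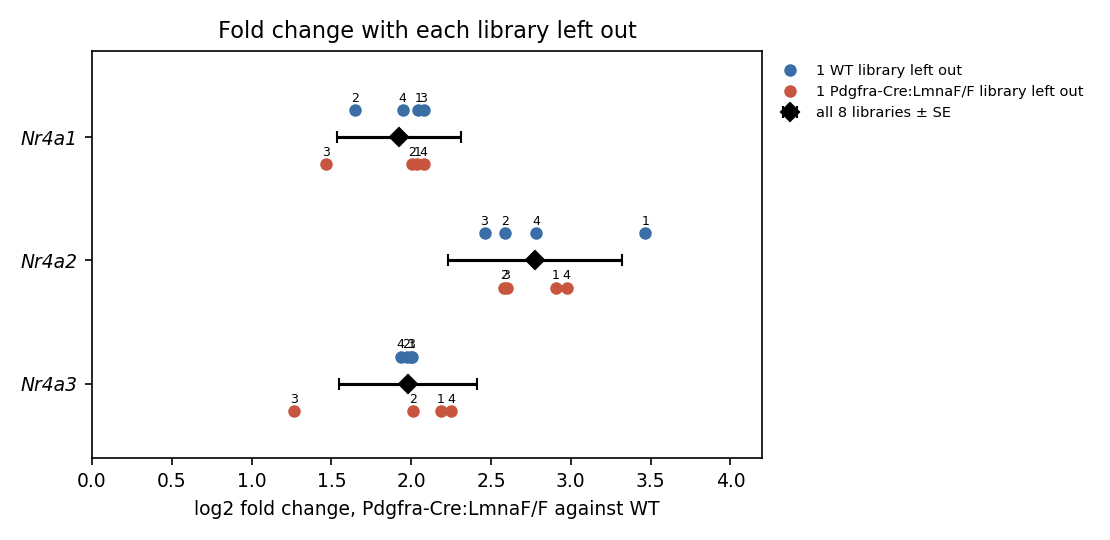
Log2 fold change of Pdgfra-Cre:LmnaF/F against WT for each gene, with all 8 libraries (diamonds, with bars for the SE) and after dropping any single library (circles numbered by replicate). All values lie above 0, and leaving out Pdgfra-Cre:LmnaF/F replicate 3 takes Nr4a3 to 1.26.

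Between genes, levels were compared per length, as CPM per kilobase of all exons of the gene. Nr4a1 was at 54.34 ± 23.81 CPM per kilobase in WT and 206.8 ± 112.3 in Pdgfra-Cre:LmnaF/F fibroblasts (SD, n = 4 each). Nr4a3 was at 3.982 ± 0.2441 and 15.72 ± 12.83, and Nr4a2 at 1.087 ± 0.8993 and 7.9 ± 3.464 CPM per kilobase. The order Nr4a1, Nr4a3, Nr4a2 was the same in 8 of 8 libraries. Within libraries the level per kilobase of Nr4a1 was 37.2 times that of Nr4a2 and 13.5 times that of Nr4a3 in the geometric mean, and the log2 difference of Nr4a2 from Nr4a3 was -1.46 ± 1.13 (SD, n = 8). The ratio of Nr4a2 to Nr4a1 per kilobase was 0.00492 to 0.0343 in WT and 0.0289 to 0.065 in Pdgfra-Cre:LmnaF/F libraries, and that of Nr4a3 to Nr4a2 was 1.79 to 11.8 and 1.32 to 3.16, so the ranges overlap and the difference was not tested. Each of the 3 pooled differences had an adjusted p of 0.00781 in an exact two-sided sign-flip permutation test, the smallest that 8 libraries can give.

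Nr4a1 made up most of the family's transcript in both genotypes. Its share of the summed level per kilobase was 81.7% to 94.1% in WT and 86.9% to 92.9% in Pdgfra-Cre:LmnaF/F libraries. Nr4a2 contributed 0.463% to 3.13% and 2.58% to 5.65%, and Nr4a3 5.44% to 16.3% and 4.14% to 8.16%. These ranges overlap between genotypes for each gene. The highest Nr4a3 share was in WT replicate 2, where Nr4a1 was low, and there the ratio of Nr4a3 to Nr4a1 per kilobase was 0.200, against 0.0445 to 0.0915 in the other 7 libraries. The summed family level was 74.36, 24.23, 76.55 and 62.48 CPM per kilobase in WT replicates 1 to 4 and 166.1, 193.3, 418.8 and 143.3 in the Pdgfra-Cre:LmnaF/F replicates.

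Set among 44 nuclear receptor genes, Nr4a1 took rank 1 by level per kilobase in all 4 Pdgfra-Cre:LmnaF/F libraries and ranks 1, 9, 1 and 3 in WT replicates 1 to 4. The receptors around it in WT were Thra, a thyroid hormone receptor, at a mean of 59.46 CPM per kilobase, Nr1d1, the heme-binding clock repressor REV-ERB alpha, at 49.96, Nr3c1, the glucocorticoid receptor, at 34.0, and Rxra, a retinoid X receptor, at 29.72. With an SD of 23.81, the WT level of Nr4a1 was not set apart from those of Thra and Nr1d1. Nr4a3 moved between ranks 16 and 19 in WT and between 4 and 18 in Pdgfra-Cre:LmnaF/F libraries. Nr4a2 held ranks 24 to 33 in WT and 14 to 20 in Pdgfra-Cre:LmnaF/F libraries.

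Of the rest of the superfamily, Nr1d2 was the receptor that rose. Of 30 other receptors tested, 1 was called higher and 0 lower, against 0.169% and 0.238% of all genes, 2 had an unadjusted p under 0.05 (11.9% of all genes), and the median log2 fold change was 0.086 against 0.025 over all tested genes. Nr1d2, the clock repressor REV-ERB beta, was at 91.47, 103.7, 79.41 and 94.23 CPM in WT and at 322.6, 214.0, 159.4 and 179.5 CPM in Pdgfra-Cre:LmnaF/F replicates. Its log2 fold change was 1.25 ± 0.23 (SE, adjusted p = 0.0366, edgeR), but the adjusted p was 0.0541 to 0.107 without any 1 of 6 libraries, namely each WT replicate and Pdgfra-Cre:LmnaF/F replicates 1 and 2. Thra had a log2 fold change of -0.57 ± 0.20 (adjusted p = 0.266) and Rxrb, a possible partner of the family, of -0.42 ± 0.22 (adjusted p = 0.479, edgeR).

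**Figure D4:**
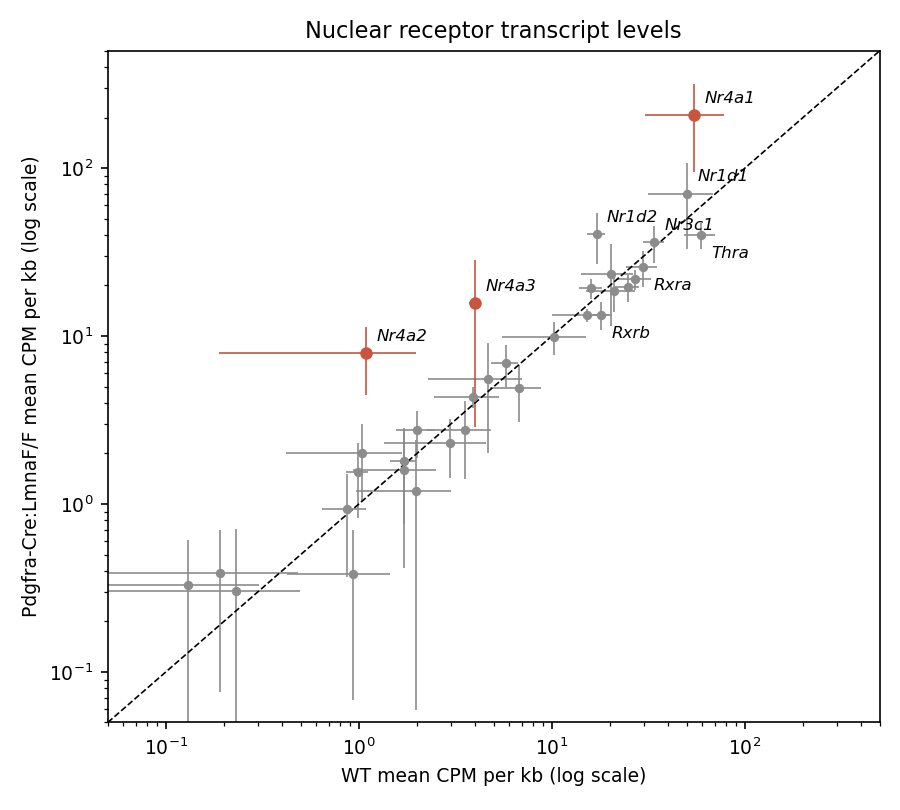
Mean CPM per kilobase in WT (horizontal, log axis) and Pdgfra-Cre:LmnaF/F fibroblasts (vertical, log axis) for the 3 Nr4a genes (red) and 30 other tested nuclear receptors (gray), with bars for the SD over 4 libraries, cut short at the lower end where the SD exceeds the mean, and a dashed line of equal levels. Nr4a1 is at 54.34 and 206.8, the highest point on the vertical axis, and all 3 Nr4a genes lie above the line.

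Around the receptors, 9 lists were examined, of which 157 genes were tested, with 4 called higher (0.169% of all genes) and 1 lower (0.238%). All 9 were chosen with earlier results of these data known, so their counts are a description of the lists only. Among 15 partners and coregulators 0 were called in either direction (0.407% of all genes), with 2 at an unadjusted p under 0.05 (11.9% of all genes), and the median log2 fold change was -0.039. Hipk3, a kinase of nuclear cofactors, was at 0.64 ± 0.19 (adjusted p = 0.192, edgeR). DESeq2, which called 0.935% of its genes higher, called 1 of the list, Hipk3 (adjusted p = 0.0348), and limma-voom 0 (0.483% of all genes in each direction).

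In the lists of routes that switch Nr4a genes on, edgeR with its filter called 0 genes. In the cAMP and CREB list, 0 of 20 genes were called (0.407% of all genes), 4 had an unadjusted p under 0.05 (11.9% of all genes) and the median was -0.18. Prkaca, the main catalytic subunit of protein kinase A, was at 99.41, 119.3, 86.76 and 116.6 CPM in WT and 73.13, 61.11, 38.91 and 56.0 CPM in Pdgfra-Cre:LmnaF/F replicates. These groups did not overlap, as for 3.97% of all genes, and the log2 fold change was -0.88 ± 0.23 (adjusted p = 0.125, edgeR). Without the low-count filter edgeR called Prkaca (adjusted p = 0.0375). DESeq2, which called 1.22% of its genes lower, called 1 gene of the list, Prkaca (adjusted p = 0.027), and limma-voom 0 (0.483% of all genes in each direction). The adenylyl cyclases Adcy9, at -0.68 ± 0.24 (adjusted p = 0.257), and Adcy7, at -0.72 ± 0.31 (adjusted p = 0.371) did not pass the test. The list summed to 1569 to 1688 CPM in WT and 1143 to 1559 CPM in Pdgfra-Cre:LmnaF/F libraries.

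Prostaglandin E2 and adenosine act on receptors that raise or lower cAMP. In that list 0 of 14 genes were called by edgeR (0.407% of all genes). DESeq2 called 0 (0.935% of its genes higher and 1.22% lower) and limma-voom 0 (0.483% of all genes in each direction). By edgeR 2 had an unadjusted p under 0.05 (11.9% of all genes), and the median was 0.27. Ptgs2, the inducible cyclooxygenase, was at 1.34 ± 0.60 (adjusted p = 0.401), Adora1, the adenosine A1 receptor, at -1.06 ± 0.39 (adjusted p = 0.297), and Nt5e, the enzyme CD73 that makes adenosine, at 0.75 ± 0.37 (adjusted p = 0.457, edgeR). In the calcium, MEF2 and NFAT list 0 of 17 genes were called by edgeR (0.407% of all genes), with 1 at an unadjusted p under 0.05 (11.9% of all genes) and a median of -0.097. Ppp3r1, the regulatory subunit of calcineurin, was at 0.68 ± 0.29 (adjusted p = 0.378), Hdac7, a MEF2 repressor, at -0.44 ± 0.23 (adjusted p = 0.479), and Nfatc3, a calcineurin target, at -0.36 ± 0.23 (adjusted p = 0.594, edgeR). DESeq2, which called 0.935% of its genes higher, called 1 gene of this list, Mef2b, and limma-voom 0 (0.483% of all genes in each direction). The edgeR filter had left Mef2b out, and it is named after its values were seen.

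Among early genes that respond to cAMP, Egr2 and Btg2 rose. Of 21 tested, 2 were called higher and 0 lower, against 0.169% and 0.238% of all genes, 19 had a positive log2 fold change (51.8% of all genes), 14 had an unadjusted p under 0.05 (11.9%) and 10 had groups that did not overlap, all above WT (4.06% of all genes). The median log2 fold change was 1.32. Because the list was chosen with earlier results of these data known, these counts are no separate evidence. DESeq2 called 9 genes of the list higher, against 0.935% of its genes, and limma-voom 5, against 0.483%, with 0 lower by either. Egr2 is a zinc-finger early growth response factor and Btg2 an antiproliferative early gene. The genes with a negative log2 fold change were Crem, at -0.318 ± 0.593 (adjusted p = 0.8955), and Pde10a, at -0.305 ± 0.248 (adjusted p = 0.7072, edgeR). Both are named after their values were seen. Whether the shift of the list came from cAMP was not tested.

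Egr2 was at 24.39, 11.07, 33.39 and 14.19 CPM in WT and 72.41, 117.4, 264.0 and 79.17 CPM in Pdgfra-Cre:LmnaF/F replicates. Its log2 fold change was 2.65 ± 0.43 (adjusted p = 0.0202, edgeR), and the adjusted p was 0.0523 without WT replicate 4. Btg2 was at 342.7, 109.7, 511.5 and 268.2 CPM in WT and 1011, 1046, 1887 and 1261 CPM in Pdgfra-Cre:LmnaF/F replicates. Like Nr4a1, both genes were lowest in WT replicate 2 and highest in Pdgfra-Cre:LmnaF/F replicate 3. The log2 fold change of Btg2 was 2.08 ± 0.37 (adjusted p = 0.0315, edgeR), and the call was lost without WT replicate 1 (0.0785) or 4 (0.0845) or Pdgfra-Cre:LmnaF/F replicate 2 (0.0554) or 3 (0.108). Egr3, a further early growth response factor, was at 2.42 ± 0.51 (adjusted p = 0.0645, edgeR), and it passed in 4 of 17 alternatives, with adjusted p from 0.000139 to 0.438. The list summed to 3259, 1992, 4608 and 3001 CPM in WT replicates 1 to 4 and to 6573, 7290, 11470 and 7696 CPM in the Pdgfra-Cre:LmnaF/F replicates.

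Among genes described elsewhere as NR4A targets, Ret fell. Of 20 such genes, 18 were listed and 11 tested, 0 were called higher and 1 lower, against 0.169% and 0.238% of all genes. The median log2 fold change was -0.41. Ret is the receptor tyrosine kinase for glial-derived neurotrophic factors and known as a target of NR4A2 in dopamine neurons. It was at 425.0, 710.0, 257.2 and 441.3 CPM in WT and 168.7, 118.9, 65.62 and 29.58 CPM in Pdgfra-Cre:LmnaF/F replicates, opposite in direction to Nr4a2. The log2 fold change of Ret was -2.26 ± 0.43 (adjusted p = 0.0368, edgeR), and the adjusted p was 0.0728 to 0.161 without WT replicate 1, 2 or 4 or Pdgfra-Cre:LmnaF/F replicate 2 or 3.

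The other named genes of that list were the D-type cyclins Ccnd1 and Ccnd2, which drive the cell cycle from G1. Ccnd1 was at 187.7 CPM in WT replicate 2 and between 8.917 and 24.4 CPM in the other 7 libraries, so its log2 fold change of -1.88 ± 0.75 (adjusted p = 0.332) became 0.056 without that library. It passed in 1 of 16 alternatives, at 0.027 without the low-count filter. Ccnd2 was at -0.72 ± 0.34 (adjusted p = 0.427, edgeR). The list summed to 869.9 to 1319 CPM in WT and 373.2 to 654.7 CPM in Pdgfra-Cre:LmnaF/F libraries. Ret was its highest gene by the mean over both genotypes. In Pdgfra-Cre:LmnaF/F fibroblasts the mean was 95.7 CPM for Ret and 224 CPM for Aldh1a1, which is named after its values were seen.

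For TGF-beta responsive genes of fibroblasts, on which NR4A1 is known to act, 0 of 11 were called (0.407% of all genes), 4 had an unadjusted p under 0.05 (11.9%) and the median was 0.46. Timp1, a metalloproteinase inhibitor, was at 1.63 ± 0.49 (adjusted p = 0.192) and passed in 4 of 17 alternatives, with adjusted p from 0.00592 to 0.395. Postn, the matricellular protein periostin, was at 1.68 ± 0.60 (adjusted p = 0.264) and at 0.37 without Pdgfra-Cre:LmnaF/F replicate 4, and passed in 1 of 17 alternatives (0.00957 without the low-count filter). Fn1, which encodes fibronectin, was at -0.56 ± 0.21 (adjusted p = 0.307, edgeR). DESeq2, which called 0.935% of its genes higher, called 1 gene of the list, Timp1 (adjusted p = 0.0408). With limma-voom 1 gene was called higher, against 0.483% of all genes.

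**Figure D5:**
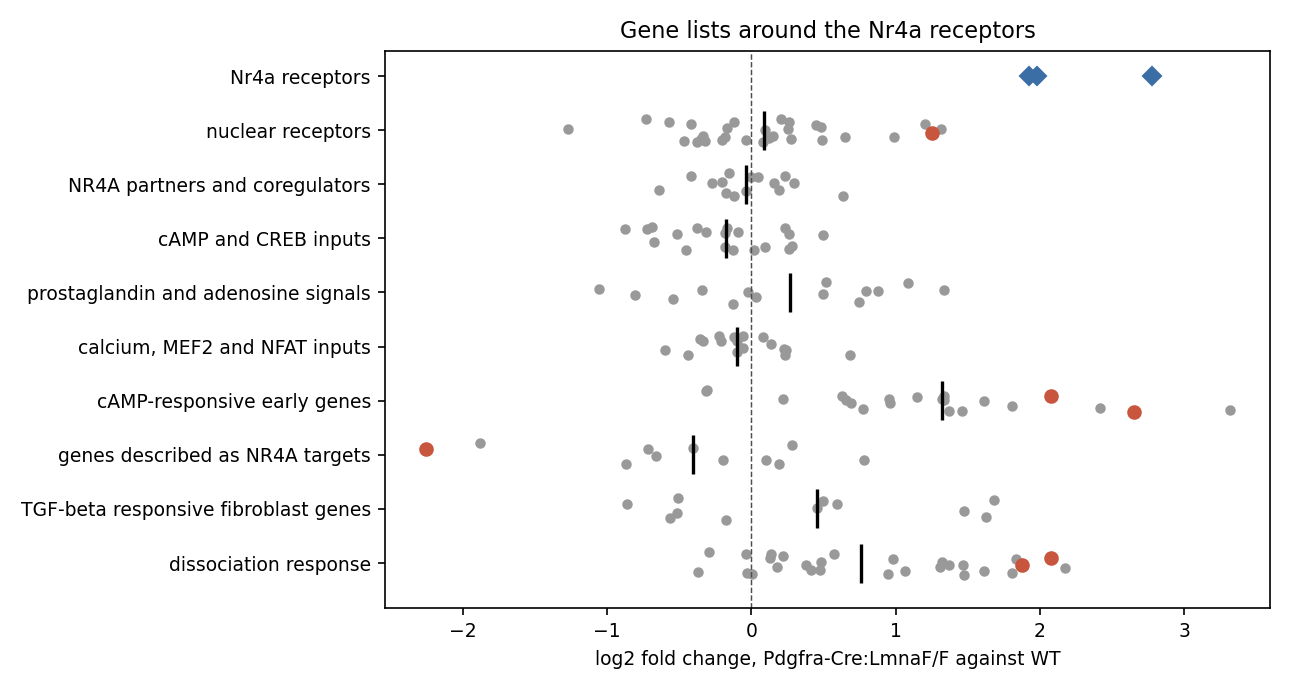
Log2 fold change of Pdgfra-Cre:LmnaF/F against WT for each tested gene of the 9 lists (gray, red where called at an adjusted p under 0.05, spread vertically at random within a list), with black lines at the list medians and the 3 Nr4a genes as diamonds. The medians are 1.32 for cAMP-responsive early genes and 0.76 for the dissociation response, and they lie between -0.41 and 0.46 for the other 7 lists.

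Immediate-early genes also respond to enzymatic dissociation and sorting, which every library went through. Of 28 genes known from that response, 2 were called higher and 0 lower, against 0.169% and 0.238% of all genes, 24 had a positive log2 fold change (51.8% of all genes), 16 had an unadjusted p under 0.05 (11.9%) and the median was 0.76. In 12 the groups did not overlap with all values above WT (4.06% of all genes), and in 1 they lay below (3.97%). DESeq2 called 11 of the list higher, against 0.935% of its genes, and limma-voom 9, against 0.483%. The list shares 6 genes with the cAMP-responsive early genes (Btg2, Dusp1, Egr1, Fos, Fosb and Junb), 21.4% of this list and 27.3% of the other, so their shifts are not separate results. Of these 6, DESeq2 called 5 and limma-voom 4. The dissociation list was likewise chosen with earlier results of these data known, so its counts are no separate evidence. The genes called by edgeR were Btg2, one of the shared genes, and Ier3, an early gene that protects from apoptosis. Ier3 was at 11.49, 21.13, 21.09 and 11.39 CPM in WT and 51.51, 47.34, 86.23 and 50.08 CPM in Pdgfra-Cre:LmnaF/F replicates, with a log2 fold change of 1.88 ± 0.31 (adjusted p = 0.0221, edgeR). The adjusted p of Ier3 was 0.0704 to 0.0848 without WT replicate 1 or 4 or Pdgfra-Cre:LmnaF/F replicate 3. Socs3, a feedback inhibitor of cytokine signaling, was at 1.48 ± 0.31 (adjusted p = 0.0627, edgeR), and it passed the test in 7 of 17 alternatives, with adjusted p from 4e-04 to 0.354 over all of them.

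The mean log2 CPM over the 28 genes was 6.81, 6.76, 7.21 and 6.81 in WT replicates 1 to 4 and 7.71, 7.61, 8.00 and 7.65 in the Pdgfra-Cre:LmnaF/F replicates. Their summed level was 5668 to 8591 CPM in WT and 10660 to 15470 CPM in Pdgfra-Cre:LmnaF/F libraries. Both measures were higher in each Pdgfra-Cre:LmnaF/F library than in any WT library, as were the Nr4a genes, and the part of dissociation in the Nr4a values was not tested.

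Markers of other cells of the heart were present at lower levels. Cardiomyocyte markers, led by Ttn, summed to 764.2 to 1062 CPM in WT and to 340.9, 940.5, 911.0 and 6021 CPM in the Pdgfra-Cre:LmnaF/F replicates. Hematopoietic markers, led by Lyz2, summed to 45.04 to 182.8 CPM in WT and 47.69 to 444.2 CPM in Pdgfra-Cre:LmnaF/F libraries, the highest again in replicate 4. That library had the lowest level of each Nr4a gene in its group, and the folds without it are given above. Endothelial markers, led by Tek, summed to 574.1 to 792.1 CPM and 445.2 to 590.4 CPM. Pericyte and smooth muscle markers, led by Rgs5, summed to 229.7 to 392.4 CPM and 202.8 to 385.9 CPM, and Schwann cell markers to at most 9.53 and 11.28 CPM. Of the 41 marker genes tested, edgeR called 0 (0.407% of all genes), with 5 at an unadjusted p under 0.05 (11.9% of all genes), limma-voom 0 (0.483% of all genes in each direction) and DESeq2 1, Tek, lower (1.22% of its genes). None of the markers was at 0 in all libraries.

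The genes whose profile over the 8 libraries was most like each member were found by the root mean square (RMS) difference of centered log2 CPM. This profile includes the difference between genotypes by which the members were chosen, so the likeness is a description. For Nr4a1 these were Btg2 (RMS 0.314), Fos (0.315), an AP-1 subunit, and Fosb (0.352), another AP-1 subunit, against a median of 1.31 over 13035 genes. Fos was at 541.5, 145.4, 922.2 and 465.2 CPM in WT and 1438, 1831, 2472 and 1519 CPM in Pdgfra-Cre:LmnaF/F replicates, with its lowest and highest values in the same libraries as those of Nr4a1. For Nr4a3 they were Thbs1 (0.297), which encodes the matricellular protein thrombospondin 1, Coq10b (0.383), a coenzyme Q binding protein, and Sertad1 (0.388), a cofactor of the cell cycle, against a median of 1.2. Thbs1 was at 320.5, 375.4, 266.2 and 256.8 CPM in WT and 740.8, 920.4, 2265 and 278.3 CPM in Pdgfra-Cre:LmnaF/F replicates, with the high value in replicate 3 and the low value in replicate 4, as for Nr4a3.

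For Nr4a2 the nearest genes were Trpm2 (0.311), a cation channel, Pm20d2 (0.531), a dipeptidase, and Mmp24 (0.537), a membrane-bound metalloproteinase, against a median of 1.80. All 3 were at 0 counts in WT replicates 2 and 3 and at most 4.067 CPM in any library, so their likeness to Nr4a2 rests on few counts. Among the members themselves the RMS difference was 0.628 between Nr4a1 and Nr4a3, 0.949 between Nr4a1 and Nr4a2 and 1.05 between Nr4a2 and Nr4a3. In the order of likeness over all genes, Nr4a3 stood at place 40 for Nr4a1 and Nr4a2 at place 781. For Nr4a2, Nr4a1 stood at place 56 and Nr4a3 at place 97. For Nr4a3, Nr4a1 stood at place 36 and Nr4a2 at place 3500.

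With each genotype centered on its own mean, which takes the genotype difference out, the likeness changed. Nr4a3 was then at place 1594 for Nr4a1 (RMS 0.609) and Nr4a2 at place 5844 (RMS 0.785). For Nr4a2, Nr4a1 was at place 2780 and Nr4a3 at place 3102, and for Nr4a3, Nr4a1 was at place 1585 and Nr4a2 at place 5928. The genes nearest to Nr4a1 became Fam118a, Tspan14, a tetraspanin, and Egr1, an early growth response factor, which are named after their values were seen. Of the genes named above, Trpm2 was at place 2 for Nr4a2, Thbs1 at place 5 for Nr4a3 and Fosb at place 8 for Nr4a1, and the others were outside the first 10. Trpm2 had 0 counts in WT replicates 2 and 3, so its place here too rests on few counts.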

How the data were processed

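RNA of sorted cardiac fibroblasts was measured in 8 libraries, 4 WT and 4 Pdgfra-Cre:LmnaF/F, grouped by the sample labels. The authors removed ribosomal RNA from samples whose RIN exceeded 8, made strand-specific libraries, read 150 bp from both ends of each fragment, aligned the reads to mm10 with HISAT2, annotated them with GENCODE and counted them with featureCounts, whose versions are not given in the sources used here. The submitters' processing notes also name FastQC and DESeq2. The deposited values are raw counts of reads for each gene. The RUV normalization named in the study's methods was not applied to them.

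Statistics were computed with edgeR 4.0.16 and limma 3.58.1 under R 4.3.3. Genes were kept with filterByExpr, scaled with TMM factors and compared with the quasi-likelihood test, without covariates and with Benjamini-Hochberg adjustment over all 13036 genes, called under 0.05. CPM used TMM library sizes, and log2 CPM a prior count of 2. Lengths were the union of exons in GENCODE M21. Alternatives were DESeq2 1.42.0, limma-voom with sample quality weights, other scaling factors and filters, RUVr, a replicate block and leaving out libraries. The procedure was tried on simulated data with planted changes of a single large size, so the recovery of smaller changes was not tested. Depth was 2080555 to 12502949 counts, and counting errors cover counting only. Nothing states that the libraries are independent beyond their labels as replicates, so p-values measure the spread between these samples.

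The members, gene lists and markers were chosen with earlier results of these data known. Named genes were the members, Lmna, the called genes and the 3 genes of lowest p in each list, and the 3 most similar genes per member. Also named were the highest marker of each list, by mean CPM over all libraries, and the 5 receptors of highest WT level. Of the listed genes, Nr1h5, Nr2e3, Hnf4g, Esr2, Pgr, Vip and Fbp1 were not matched and not analysed here. Ccn2 was matched as Ctgf. Protein sequences were not used here, and some genes that the rule names are not reported here.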

Additional observations from a re-analysis of the deposited data

Results flagged for a closer look

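In 11 of 92 groups of 4 libraries checked, 1 library stood apart from the other 3 by a gap wider than Dixon's 95% critical value. Chance alone exceeds that value in about 1 in 20 groups of independent, normally distributed values. The groups here share the same libraries and were checked as CPM, not log2 CPM, so that rate is only a rough guide. One of them concerns a member, Nr4a1, at 1312 CPM in Pdgfra-Cre:LmnaF/F replicate 3 against 467.1 to 589.3 CPM in the other 3 libraries of the group. The same library was apart for Ier3, at 86.23 CPM against 47.34 to 51.51 CPM, for Adora1, at 19.92 CPM against 9.167 to 10.64 CPM, and for Nfatc3, at 100.4 CPM against 63.92 to 66.95 CPM.

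Pdgfra-Cre:LmnaF/F replicate 4 was apart for the summed cardiomyocyte markers, at 6021 CPM against 340.9 to 940.5 CPM, and for the summed hematopoietic markers, at 444.2 CPM against 47.69 to 108.1 CPM. It was also apart for Postn, at 3040 CPM against 292.5 to 568 CPM, and for Socs3, at 342.8 CPM against 207.3 to 223.3 CPM. In WT, replicate 2, the library of lowest depth, was apart for Ccnd1, at 187.7 CPM against 12.46 to 17.08 CPM, and for Timp1, at 38.24 CPM against 18.53 to 19.9 CPM. WT replicate 3 was apart for the summed prostaglandin and adenosine genes, at 386 CPM against 295.2 to 310.5 CPM.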

How the results depend on the processing

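The log2 fold changes of the 3 members stayed above 0 under every alternative that gave a value. They lay between 1.20 and 2.08 for Nr4a1, 2.41 and 3.47 for Nr4a2, and 1.26 and 2.25 for Nr4a3, and Nr4a2 had no value where each library had to reach 10 counts. The count of genes called moved more, from 53 to 309 with DESeq2, 126 with limma-voom and sample quality weights, 274 without a filter and 81 with 1 RUVr factor, and to between 13 and 76 with 1 library left out. With WT replicate 2 and Pdgfra-Cre:LmnaF/F replicate 3 both left out, added after seeing the data, 6 genes were called. The calls within the 9 lists, 5 in all, became 21, 13, 22 and 11 under those 4 alternatives, 8 where each library had to reach 10 counts, 0 to 9 with 1 library left out and 1 without both. The causes were not tested. Of the 9 genes named as most similar to a member, 3 to 6 were named again with 1 library left out. The log2 fold change of Ccnd1 lay between -2.22 and 0.056 with 1 library left out, reversed without WT replicate 2, and was 0.203 without both libraries. The order of the members per kilobase kept its direction under the 10 alternatives run for it. Replicate numbers occur in both genotypes, but the correlations of same-numbered deviations were between -0.03 and 0.04, and 2 of 8 libraries correlated best with their own number, so the numbers were not taken as pairs. With a replicate block 36 genes were called, 26 of them shared with the 53, and Nr1d2 had an adjusted p of 0.0612 (edgeR). WT replicate 2 was read 2080555 times in all and held 4 counts of Nr4a2.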
